A study of Homo sapiens with 24 samples.

Results

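Progenitors that divide in the embryonic brain carry a set of marker genes, of which 10 were followed here. They are SOX1, SOX2 and SOX3, the transcription factors of the SOXB1 group, and the radial glia genes NR2E1, FABP7, PTPRZ1, SLC1A3, PROM1, NES and VIM. They are a list of named progenitor markers, drawn up with earlier results of these data known, and the list sets no threshold on a measured level. All 10 are among the 61544 identifiers of the organoid table. The table of neural progenitor cells (NPCs) lists 10221 gene symbols, and 6 of the 10 are among them; SOX2, SOX3, NR2E1 and VIM are not, so they were not analysed here in the NPCs.

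The cells derive from the human embryonic stem cell line H9, long established, in which KDM2A, a demethylase of lysine 36 on histone H3, was targeted by lentiviral short hairpin RNAs. Messenger RNA was sequenced from NPCs and from cerebral organoids of day 30. In each system the libraries carried hairpin sh1 against KDM2A, hairpin sh4 against KDM2A, or NC, a scrambled hairpin. Each NPC group has 5 libraries and each organoid group has 3. All groups, NC included, had been transduced as stem cells and kept under puromycin at 1 µg/ml before neural induction, and sh1 and sh4 came from the siRNAs that the study found most effective among 5. The labels call the NC libraries WT and the sh1 and sh4 libraries KDM2A knockdown, and their treatment field speaks of siRNAs where the study's design text names lentiviral hairpins. The model is thus 1 cell line, with the hairpins introduced at the stem cell stage. Whether they stayed present and active in the cell types that arose was not measured. Nothing in the labels states that the libraries of a group are separate differentiations, and each p-value therefore covers the spread among these libraries alone, which may be technical.

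Radial glia are the stem cells of the developing cortex. Their cell bodies line the ventricle, they span the wall with long fibres, and they divide to give more radial glia, intermediate progenitors and neurons. SOX1, SOX2 and SOX3 bind the same short DNA element, hold neural cells in the progenitor state and oppose neuronal differentiation; SOX2 also belongs to the core network of pluripotent stem cells, and SOX1 is among the earliest genes of the neural plate. KDM2A carries a CXXC zinc finger, a domain that binds CpG dinucleotides without methyl groups.

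Levels are given as CPM, counts scaled to one common library total after a correction for composition between libraries (TMM). In the NPCs the total covers only the listed genes. A gene was called changed where the Benjamini-Hochberg adjusted p of edgeR's quasi-likelihood test was under 0.05 and the log2 fold change was at least 1 in size; "rose" and "fell" are used of called genes only. Organoid libraries held 15899248 to 18853747 counts, and NPC libraries held 12733885 to 20185308 counts of listed genes. The NPC table looked like a list filtered on the sh1 comparison with NC, since 99.3% of its 9860 tested genes had an adjusted p under 0.05 in that comparison by edgeR's quasi-likelihood test, and 88% between sh4 and NC. Adjusted p-values alone therefore say little there, and the fold threshold does most of the sorting.

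KDM2A, the targeted gene, averaged 92.1 ± 4.15 CPM with sh1, 95.1 ± 4.21 CPM with sh4 and 186 ± 15.3 CPM with NC in the NPCs (SD, n = 5 each). It was 2.02-fold lower with sh1 (log2 fold change -1.02, adjusted p = 5.12e-12, edgeR's quasi-likelihood test) and 1.96-fold lower with sh4 (-0.97, adjusted p = 7.36e-12), the second just under the fold threshold, which it passed with library size as the only scaling (-1.11) or without NC replicate 5 (-1.01). In the organoids KDM2A stood at 111, 117 and 103 CPM in the libraries labelled sh1, at 105, 95.5 and 103 CPM in those labelled sh4, and at 99.9, 105 and 96.8 CPM in NC. The 3 groups overlapped. The log2 difference from NC was 0.14 with sh1 (95% interval -0.02 to 0.29, edgeR adjusted p = 0.127) and 0.01 with sh4 (-0.14 to 0.16, edgeR adjusted p = 0.926). With library size as the only scaling the sh4 difference was -0.27 (adjusted p = 0.00871, edgeR's quasi-likelihood test), under the fold threshold, and the median of all genes was then -0.28. The organoid results below are therefore those of the libraries labelled sh1 and sh4, with no KDM2A loss measured at day 30 after TMM scaling.

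The tissue label was also compared with its defining markers. PAX6, of dorsal forebrain progenitors, had 10.4 to 18.5 CPM in organoids labelled sh1, 4.22 to 10.9 CPM in those labelled sh4 and 143 to 206 CPM in NC organoids. DCX, doublecortin of young neurons, had 328 to 422 CPM, 25.1 to 167 CPM and 760 to 853 CPM in the same order. AFP, the fetal liver and yolk sac protein, had 2178 to 6774 CPM, 13378 to 49878 CPM and 23.3 to 239 CPM. So the neural markers PAX6 and DCX were highest in the NC organoids, neither was at 0 in the hairpin groups, and AFP was the gene with the most counts (4.07%) in replicate 1 of sh4.

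Of the 6 members that fell with both hairpins in the organoids, 5 are shown with 120 bases of promoter, as a description of their CG content. KDM2A was not called lower in those organoids, and no link of CG content to KDM2A was tested. The capitals mark each CG. The sequences are those of RefSeq on GRCh38.p14, read 5′ to 3′ on the strand of the gene, and each stretch lies before both the RefSeq start and the start in the GENCODE annotation, whose gene coordinates are given with the values below. The SOX1 stretch ends at its RefSeq start, 498 bases before that of GENCODE. For FABP7 the RefSeq start lies 241 bases inside the GENCODE gene, and no stretch is shown.
SOX1 (chr13:112067029-112067148, plus strand): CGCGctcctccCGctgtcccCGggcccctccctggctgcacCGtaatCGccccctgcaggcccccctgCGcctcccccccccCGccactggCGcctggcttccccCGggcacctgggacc
SOX2 (chr3:181711804-181711923, plus strand): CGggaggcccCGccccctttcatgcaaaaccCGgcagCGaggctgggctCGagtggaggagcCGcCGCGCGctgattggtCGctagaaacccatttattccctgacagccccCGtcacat
SOX3 (chrX:140505117-140505236, minus strand): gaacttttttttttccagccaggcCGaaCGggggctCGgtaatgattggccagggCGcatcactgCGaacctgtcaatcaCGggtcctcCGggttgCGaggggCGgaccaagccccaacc
NR2E1 (chr6:108165902-108166021, plus strand): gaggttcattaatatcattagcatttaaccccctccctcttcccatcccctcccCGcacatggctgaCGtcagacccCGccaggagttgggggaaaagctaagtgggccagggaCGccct
PTPRZ1 (chr7:121872969-121873088, plus strand): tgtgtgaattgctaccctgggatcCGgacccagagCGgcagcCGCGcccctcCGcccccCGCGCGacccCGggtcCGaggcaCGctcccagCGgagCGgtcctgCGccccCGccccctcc

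Within 250 bases before the RefSeq start, SOX1 held 31 CG dinucleotides, PTPRZ1 29, SOX2 20, SOX3 17, NR2E1 14 at the start shown and 6 at its other one, and FABP7 5, against a median of 11 over the 35116 promoters of the table. Of the members that did not fall with both hairpins, NES and VIM held 8 each, the 3 starts of SLC1A3 held 1, 5 and 7, and the 4 starts of PROM1 held 13, 26, 17 and 5. As many CG as in SOX1 were found in 10.9% of all promoters, as many as in SOX2 in 32.4%, and as many as in FABP7 in 65.7%. FABP7 thus lay below that median among the members that fell, and PROM1 had starts above it among those that did not. In the NPCs, where KDM2A was lower, SOX1, PTPRZ1, FABP7, SLC1A3 and PROM1 all rose with both hairpins, and NES was not called. The CG count was chosen after the expression values were seen, and the files hold neither binding nor methylation.

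The 250 bases were also searched on both strands for AACAAT, the core of the SOX element, for TGCAAAT, the core of the POU octamer, and for GTGGGAA, the element of RBPJ, the nuclear partner of Notch. The 10 members have 16 promoters in the table. AACAAT was found in 1 of the 16, and in 8.98% of all promoters. It lay at 1 of 3 starts of SLC1A3, 74 bases before that start, which itself lies 9767 bases before the gene as GENCODE gives it. The site is shown in capitals as the one match among the members.
SLC1A3 (chr5:36596487-36596546, plus strand): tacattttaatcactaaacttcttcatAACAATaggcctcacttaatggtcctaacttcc
TGCAAAT and GTGGGAA were in 0 of the 16, and in 3.67% and 5.43% of all promoters. Enhancers, where SOXB1 factors are known to act in the neural tube, were not searched.

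In the day 30 organoids all 3 SOXB1 genes were lower in both hairpin groups. SOX1 (chromosome 13, 112067647 to 112070488, plus strand, GRCh38) had 6.36, 11.1 and 8.88 CPM with sh1, 2.4, 2.71 and 3.18 CPM with sh4, and 58.9, 51.6 and 53.4 CPM with NC. The 3 groups did not overlap, and every sh4 library lay below every sh1 library. SOX1 fell 6.22-fold with sh1 (log2 fold change -2.64, SE 0.18, adjusted p = 6.11e-06, edgeR's quasi-likelihood test) and 19.7-fold with sh4 (-4.30, SE 0.2, adjusted p = 3.88e-07).

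SOX2 (chromosome 3, 181711924 to 181714436, plus strand) had 76.3, 81.6 and 129 CPM with sh1, 15.9, 25.9 and 25.8 CPM with sh4, and 214, 182 and 212 CPM with NC. Its groups did not overlap either, and the third sh1 library was the nearest to NC. SOX2 fell 2.12-fold with sh1 (log2 fold change -1.09, SE 0.22, adjusted p = 0.00284, edgeR's quasi-likelihood test) and 8.98-fold with sh4 (-3.17, SE 0.24, adjusted p = 3.1e-06). The sh1 value was close to the fold threshold: without sh1 replicate 1 it was -0.94 and without sh1 replicate 2 it was -0.98, both under it.

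SOX2 sits inside SOX2-OT, a long non-coding RNA gene read from the same strand (chromosome 3, 180989762 to 181836880), so reads of the pair may be hard to assign. SOX2-OT had 14.8 to 35.8 CPM with sh1, 2.53 to 5.88 CPM with sh4 and 14.8 to 17.7 CPM with NC. It fell with sh4 (log2 fold change -1.78, adjusted p = 0.00199, edgeR's quasi-likelihood test) and was not called with sh1 (0.48, 95% interval -0.29 to 1.25, adjusted p = 0.28). The sh1 libraries therefore had less SOX2 than NC while their SOX2-OT overlapped NC, and with sh4 both were lower.

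SOX3 (chromosome X, 140502985 to 140505116, minus strand) had 10.3, 11.7 and 11.9 CPM with sh1, 2.21, 5.71 and 4.86 CPM with sh4, and 101, 78.9 and 98.3 CPM with NC. It was the SOXB1 gene with the largest fold change in both comparisons. SOX3 fell 8.19-fold with sh1 (log2 fold change -3.03, SE 0.23, adjusted p = 1.01e-05, edgeR's quasi-likelihood test) and 21.6-fold with sh4 (-4.43, SE 0.25, adjusted p = 8.02e-07).

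**Figure D1:**
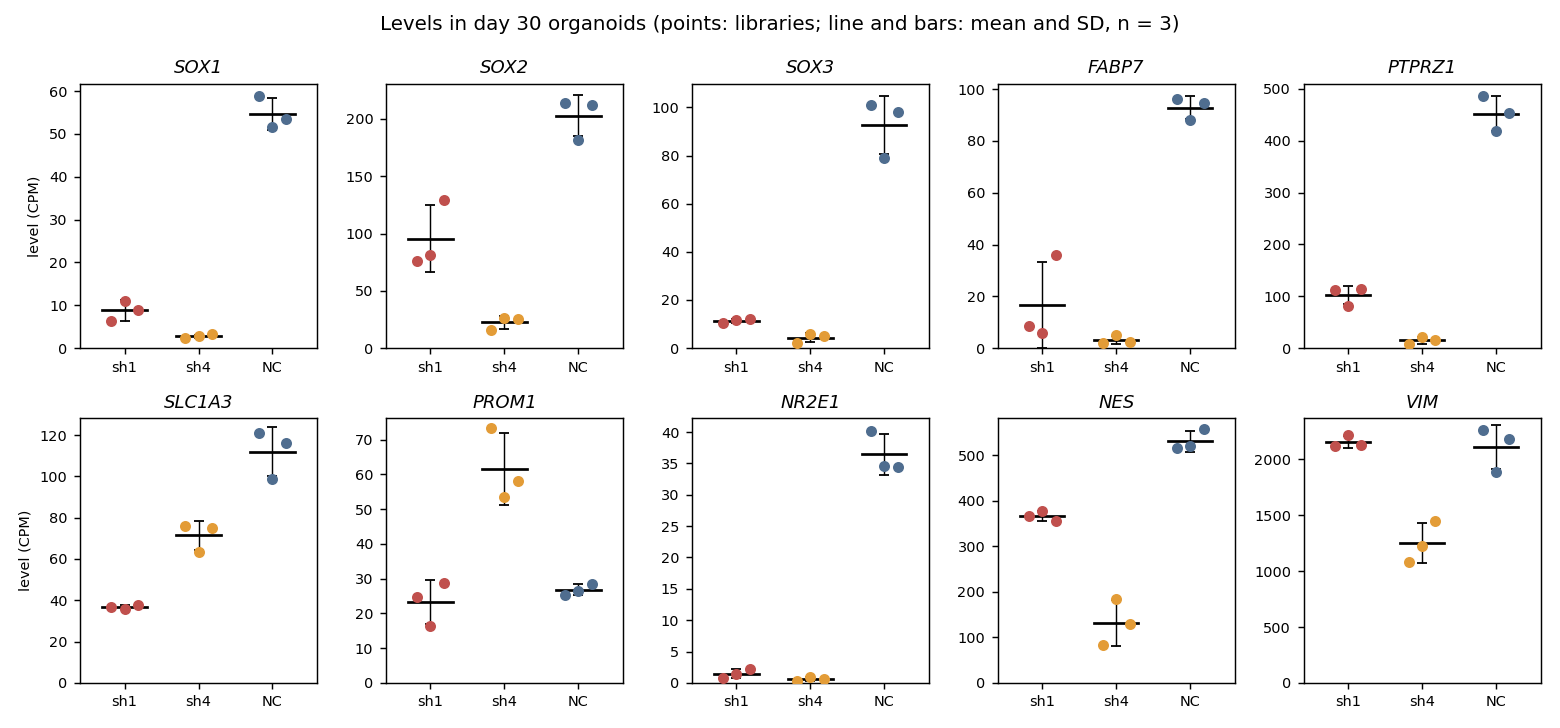
Level in CPM (vertical axis, from 0, one scale per gene) of the 10 genes in day 30 organoids labelled sh1, sh4 and NC. Points are libraries, and the line and bars are the mean and SD (n = 3). The 3 SOXB1 genes, FABP7, PTPRZ1 and NES step down from NC over sh1 to sh4 without overlap, SLC1A3 is lowest with sh1, and PROM1 is highest with sh4 (53.5 to 73.3 CPM).

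The SOXB1 genes did not fall in proportion. Per kilobase of exon, which allows levels of different genes to be compared, SOX2 made up 81.4 ± 3.96% of the summed SOX1, SOX2 and SOX3 level with sh1, 75.4 ± 1.61% with sh4 and 56.3 ± 0.624% with NC (SD, n = 3 each). SOX3 made up 11.8 ± 2.13%, 16.2 ± 3.33% and 30.2 ± 1.07%, and SOX1 6.84 ± 2.19%, 8.44 ± 1.75% and 13.4 ± 0.802%. For each gene the shares of either hairpin group lay wholly on 1 side of the NC shares. A two-sided exact permutation test gave p = 0.1 for each of the 6 comparisons, the smallest value that 3 against 3 libraries allow. The summed level itself was 37.4 to 59.9 CPM per kilobase with sh1, 8.21 to 13.9 with sh4 and 128 to 153 with NC.

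**Figure D2:**
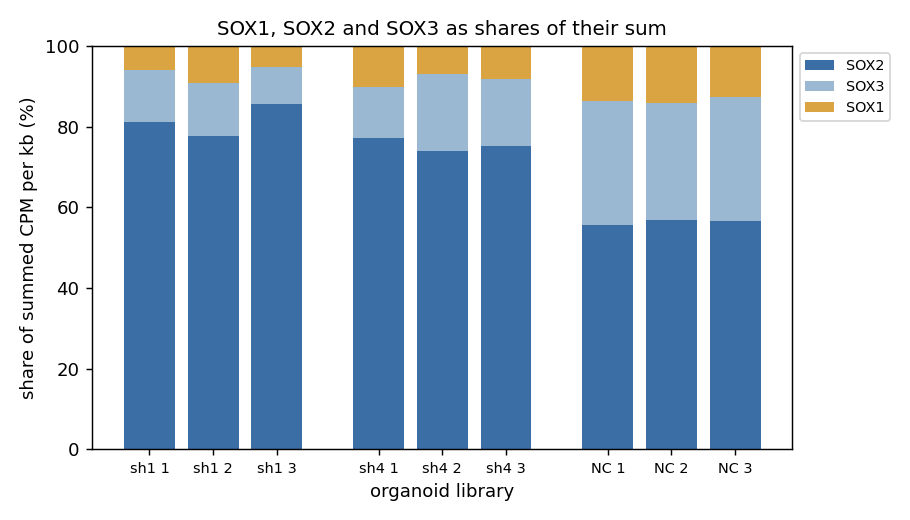
Share (%) of SOX2, SOX3 and SOX1 in their summed CPM per kilobase (vertical axis) in each organoid library, sh1, sh4 and NC. SOX2 takes 77.6 to 85.5% of the sum in the sh1 libraries and 55.6 to 56.8% in the NC libraries.

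SOX2 is also a gene of pluripotent cells, and markers of such cells moved the same way. Of 11 tested pluripotency genes, 11 fell with both hairpins, where 6.18% of all genes did. The summed level of the list of 12 was 125 to 134 CPM with sh1, 126 to 171 CPM with sh4 and 961 to 1443 CPM with NC. POU5F1, its defining factor, had 0.0549 to 1.04 CPM with sh1, 0.0599 to 1.04 CPM with sh4 and 187 to 308 CPM with NC, and UTF1 was at 0 in all sh1 and sh4 libraries. NANOG averaged 0.0183 CPM with sh1, 0.0392 CPM with sh4 and 16 CPM with NC. Genes so near 0 with both hairpins passed the filter on low counts through NC and could only be called lower. The count of 11 was therefore partly set by the filter. The part of pluripotent cells in the SOX2 and SOX3 results was not tested. In these bulk libraries fewer cells of a type and less RNA per cell cannot be told apart.

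Among the radial glia genes, the nuclear receptor gene NR2E1 had the largest fold change. NR2E1, known as TLX, keeps neural stem cells dividing (chromosome 6, 108166058 to 108188809, plus strand). It had 0.768, 1.37 and 2.19 CPM with sh1, 0.325, 1 and 0.659 CPM with sh4, and 40.2, 34.6 and 34.5 CPM with NC. All hairpin libraries were far below NC, with 5 to 40 counts each against 589 to 728 counts in the NC libraries, and sh1 and sh4 overlapped. NR2E1 fell 25.1-fold with sh1 (log2 fold change -4.65, SE 0.32, adjusted p = 6.73e-06, edgeR's quasi-likelihood test) and 53.9-fold with sh4 (-5.75, SE 0.36, adjusted p = 1.16e-06).

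FABP7 encodes the brain fatty acid binding protein of radial glia, a Notch target in mice (chromosome 6, 122779475 to 122784074, plus strand). It had 8.61, 5.66 and 35.8 CPM with sh1, 2.01, 4.88 and 2.46 CPM with sh4, and 96.2, 87.9 and 94.5 CPM with NC. The third sh1 library stood well above the other sh1 libraries, and all stayed below NC. FABP7 fell 5.56-fold with sh1 (log2 fold change -2.48, SE 0.56, adjusted p = 0.00537, edgeR's quasi-likelihood test) and 29.5-fold with sh4 (-4.88, SE 0.67, adjusted p = 0.000123). Without sh1 replicate 3 the sh1 value was -3.71.

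PTPRZ1, a receptor tyrosine phosphatase of outer radial glia that binds pleiotrophin (chromosome 7, 121873089 to 122062036, plus strand), had 112, 82.1 and 114 CPM with sh1, 8.25, 20.6 and 16.3 CPM with sh4, and 486, 418 and 453 CPM with NC. The groups were widely apart. PTPRZ1 fell 4.41-fold with sh1 (log2 fold change -2.14, SE 0.25, adjusted p = 0.000133, edgeR's quasi-likelihood test) and 29.9-fold with sh4 (-4.90, SE 0.29, adjusted p = 9.01e-07).

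SLC1A3, the glutamate transporter GLAST of radial glia and astrocytes (chromosome 5, 36606355 to 36688334, plus strand), had the opposite order of hairpins. It had 36.9, 35.6 and 37.7 CPM with sh1, 75.8, 63.3 and 75.1 CPM with sh4, and 121, 98.5 and 116 CPM with NC. No groups overlapped, and sh1 was the lowest. SLC1A3 fell 3.04-fold with sh1 (log2 fold change -1.61, SE 0.098, adjusted p = 3.6e-06, edgeR's quasi-likelihood test), whereas in sh4 its log2 fold change of -0.65 (SE 0.095, adjusted p = 0.000199) was under the fold threshold.

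PROM1 was the one member that rose in the organoids. It encodes CD133, a membrane protein of apical protrusions that is carried by neural progenitors and by many other epithelia (chromosome 4, 15963076 to 16084378, minus strand). It had 24.7, 16.5 and 28.8 CPM with sh1, 73.3, 53.5 and 58 CPM with sh4, and 25.4, 26.5 and 28.6 CPM with NC. The sh1 libraries overlapped NC and the sh4 libraries lay above both. PROM1 rose 2.3-fold with sh4 (log2 fold change 1.20, SE 0.19, adjusted p = 0.000293, edgeR's quasi-likelihood test), and with library size as the only scaling this was 0.91, under the threshold. With sh1 the log2 difference was -0.20 (95% interval -0.62 to 0.22, adjusted p = 0.409).

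Epithelial markers were higher beside PROM1 in the sh4 organoids. Of 9 tested epithelium genes 6 were called higher with sh4 and 0 lower, where 20% and 15.5% of all genes were. With sh1 0 of these 9 were higher and 1 was lower, where 12.1% and 7.92% of all genes were. Their summed level was 558 to 767 CPM with sh1, 2130 to 2876 CPM with sh4 and 878 to 1003 CPM with NC, with none at 0, and EPCAM had 27.2 to 52.4, 118 to 229 and 63.4 to 70 CPM. With sh1 this sum and EPCAM lay below NC, while PROM1 overlapped NC. The part of epithelium genes in the PROM1 result was not tested.

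The intermediate filament genes had the highest levels among the members. NES encodes nestin, the filament of neuroepithelial cells (chromosome 1, 156668763 to 156677397, minus strand), and had 366, 378 and 356 CPM with sh1, 83.3, 184 and 129 CPM with sh4, and 515, 520 and 557 CPM with NC. Each group lay apart from the others. NES fell 4.02-fold with sh4 (log2 fold change -2.01, SE 0.22, adjusted p = 3.34e-05, edgeR's quasi-likelihood test), and with sh1 its log2 fold change of -0.53 (95% interval -1.02 to -0.05) missed the threshold with adjusted p = 0.068.

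VIM, vimentin, is shared by radial glia, mesenchyme and endothelium (chromosome 10, 17228259 to 17237593, plus strand). It had 2117, 2219 and 2127 CPM with sh1, 1085, 1224 and 1447 CPM with sh4, and 2260, 1887 and 2181 CPM with NC. The sh1 and NC libraries overlapped. VIM was not called in either comparison: the log2 difference was 0.03 with sh1 (95% interval -0.21 to 0.27, adjusted p = 0.838 by edgeR's quasi-likelihood test), its sign turning with library size as the only scaling, and -0.75 with sh4 (SE 0.11, adjusted p = 0.000181), or -1.02 and called with that scaling.

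Mesenchymal genes, which belong to cells rich in vimentin, were higher beside it. Of 12 tested mesenchyme genes 10 rose with both hairpins and 0 fell, where 10.2% and 6.18% of all genes did. The summed level of the list was 22318 to 25237 CPM with sh1, 41823 to 51330 CPM with sh4 and 3235 to 4710 CPM with NC, with none at 0. DCN, the matrix proteoglycan decorin, rose with both (log2 fold changes 3.11 and 4.61). Their part in the level of VIM was not tested. VIM-AS1, antisense to the start of VIM, had 0.989 to 1.1 CPM with sh1, 1.1 to 1.44 CPM with sh4 and 1.38 to 2.35 CPM with NC.

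Counted together, 7 of the 10 members fell with sh1 and 0 rose, where 7.92% of the 19704 tested organoid genes fell and 12.1% rose. With sh4 7 fell and 1 rose, where 15.5% of all genes fell and 20% rose. SOX1, SOX2, SOX3, NR2E1, FABP7 and PTPRZ1 fell with both hairpins, 6 of 10, against 6.18% of all genes. Libraries of the 2 groups did not overlap for 8 of 10 members between sh1 and NC, for 10 of 10 between sh4 and NC and for 9 of 10 between sh1 and sh4, where 62.1%, 73.1% and 59.2% of all genes had no overlap. The median log2 fold change of the members was -1.87 with sh1 and -3.73 with sh4, and that of all tested genes was 0.02 and -0.01. All 10 members passed the filter on low counts. With library size as the only scaling the median of all genes with sh4 was -0.28 and 43.3% of all calls were higher, against 56.4% with TMM. The 2 comparisons share the NC libraries.

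The organoid hairpin groups also differed from each other. SOX1, SOX2, SOX3, FABP7, PTPRZ1 and NES were called higher with sh1 than with sh4, 6 of 10 where 7.83% of all genes were, with log2 differences (sh1 over sh4) of 1.40 for SOX3 to 2.76 for PTPRZ1. PROM1 was called lower with sh1 (-1.40, adjusted p = 0.000387, edgeR's quasi-likelihood test), as were 11.2% of all genes. NR2E1 had 1.10 and adjusted p = 0.0555 by the same test; it passed with library size as the only scaling (1.32), with DESeq2 (1.08) and with no filter (1.10). SLC1A3 (-0.96) and VIM (0.78) were under the fold threshold; SLC1A3 passed it without sh1 replicate 3 (-1.02) or without sh4 replicate 2 (-1.04), and VIM with library size as the only scaling (1.01). With library size as the only scaling the median of all genes in this comparison was 0.26 and 57.3% of all calls were higher, against 41.2% with TMM. The order NC above sh1 above sh4, with no library out of place, held for SOX1, SOX2, SOX3, FABP7, PTPRZ1 and NES, 6 of 10, and for 13.1% of all genes.

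Technical measures differed along the same groups. The mitochondrially encoded share of counts was 3.14 to 3.29% with sh1, 5.05 to 6.02% with sh4 and 3.07 to 3.50% with NC, and the 10 genes with the most counts took 6.73 to 7.41%, 11.8 to 14.4% and 5.38 to 5.81%. Their part in the sh4 results was not tested.

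**Figure D3:**
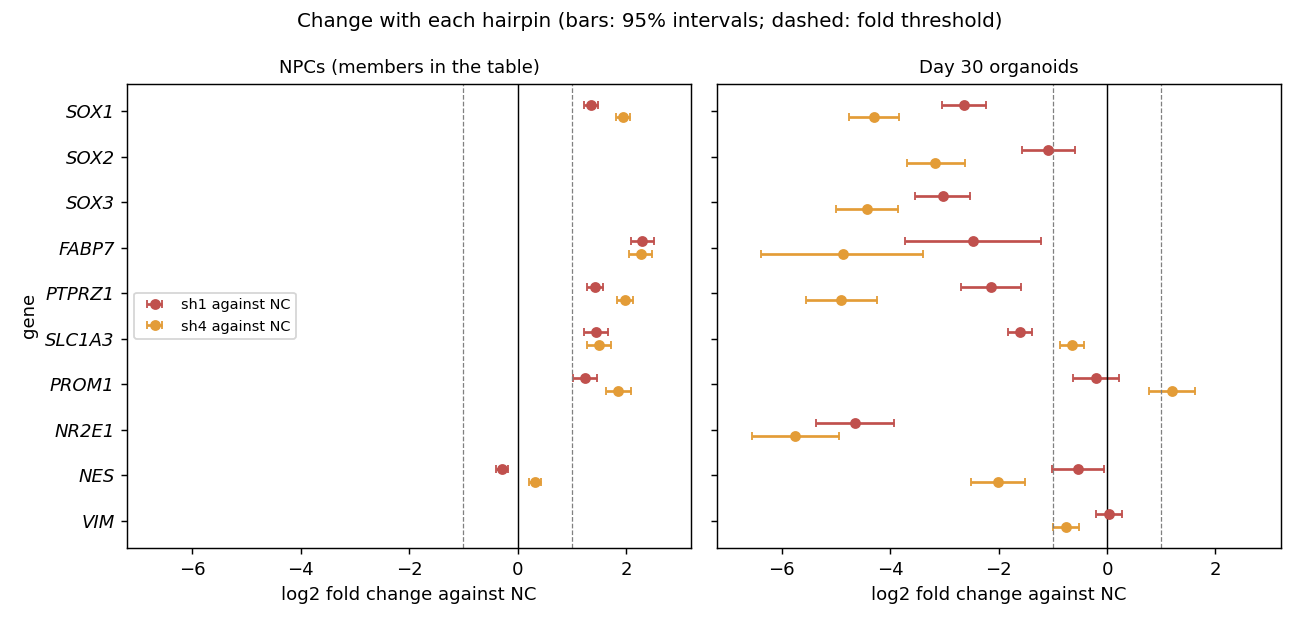
Log2 fold change (horizontal axis) with sh1 and with sh4 against NC for the 6 members listed in the NPC table (left) and the 10 members in the organoids (right); bars are 95% intervals and dashed lines the fold threshold of 1. SOX1, FABP7, PTPRZ1, SLC1A3 and PROM1 are to the right of the threshold in the NPCs, and SOX1, SOX2, SOX3, FABP7, PTPRZ1 and NR2E1 are to the left of it in the organoids with both hairpins.

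In the NPCs the listed members went the other way. SOX1 had 33.3, 32.2, 33.2, 34.9 and 33.5 CPM with sh1, 49.7, 46.3, 54.8, 50.9 and 49.2 CPM with sh4, and 11.8, 13.2, 12.5, 13.6 and 13.9 CPM with NC. The libraries of a group were tight and the groups did not overlap. SOX1 rose 2.57-fold with sh1 (log2 fold change 1.36, SE 0.063, adjusted p = 6.59e-13, edgeR's quasi-likelihood test) and 3.85-fold with sh4 (1.95, SE 0.063, adjusted p = 2.46e-15). SOX2 and SOX3 not being listed, SOX1 is the one SOXB1 gene with an NPC value.

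FABP7 had the largest NPC change of the members. It had 28.5, 31.6, 28.2, 27.5 and 29 CPM with sh1, 26.3, 27.5, 25.4, 30.5 and 32.2 CPM with sh4, and 4.8, 4.79, 6.48, 6.41 and 6.99 CPM with NC. The hairpin groups overlapped each other and lay above NC. FABP7 rose 4.94-fold with sh1 (log2 fold change 2.30, SE 0.1, adjusted p = 3.8e-13, edgeR's quasi-likelihood test) and 4.83-fold with sh4 (2.27, SE 0.1, adjusted p = 2.72e-13).

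PTPRZ1 had 163, 178, 163, 164 and 154 CPM with sh1, 260, 234, 207, 258 and 249 CPM with sh4, and 58.8, 59, 57.4, 58.6 and 71.6 CPM with NC. The groups did not overlap, and NC replicate 5 stood above the other NC libraries. PTPRZ1 rose 2.69-fold with sh1 (log2 fold change 1.43, SE 0.069, adjusted p = 1.12e-12, edgeR's quasi-likelihood test) and 3.95-fold with sh4 (1.98, SE 0.07, adjusted p = 8.82e-15).

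SLC1A3 had 77, 72, 76.1, 66.9 and 56.9 CPM with sh1, 86.5, 69.3, 68, 75.6 and 65.3 CPM with sh4, and 29.2, 21.6, 30.2, 25.1 and 22.4 CPM with NC. Both hairpin groups lay above NC and overlapped each other. SLC1A3 rose 2.72-fold with sh1 (log2 fold change 1.44, SE 0.1, adjusted p = 2.61e-10, edgeR's quasi-likelihood test) and 2.85-fold with sh4 (1.51, SE 0.1, adjusted p = 1.18e-10).

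PROM1 had 74.1, 78.5, 72.4, 79.7 and 79.2 CPM with sh1, 119, 116, 111, 121 and 121 CPM with sh4, and 26.8, 31.9, 24.8, 31.9 and 46.1 CPM with NC. NC replicate 5 was again the highest of its group, and no groups overlapped. PROM1 rose 2.37-fold with sh1 (log2 fold change 1.24, SE 0.11, adjusted p = 4.15e-09, edgeR's quasi-likelihood test) and 3.63-fold with sh4 (1.86, SE 0.11, adjusted p = 1.2e-11).

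NES had 1627, 1860, 1687, 1893 and 1771 CPM with sh1, 2615, 2800, 2979, 2426 and 2648 CPM with sh4, and 2223, 2122, 2196, 2051 and 2152 CPM with NC. The sh1 libraries lay below NC and the sh4 libraries above it. By edgeR's quasi-likelihood test it differed from NC by -0.28 on the log2 scale in sh1 (SE 0.055, adjusted p = 0.000105) and 0.33 in sh4 (SE 0.055, adjusted p = 2.18e-05), both under the fold threshold, so nestin, the member with the most counts, was called with neither hairpin.

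**Figure D4:**
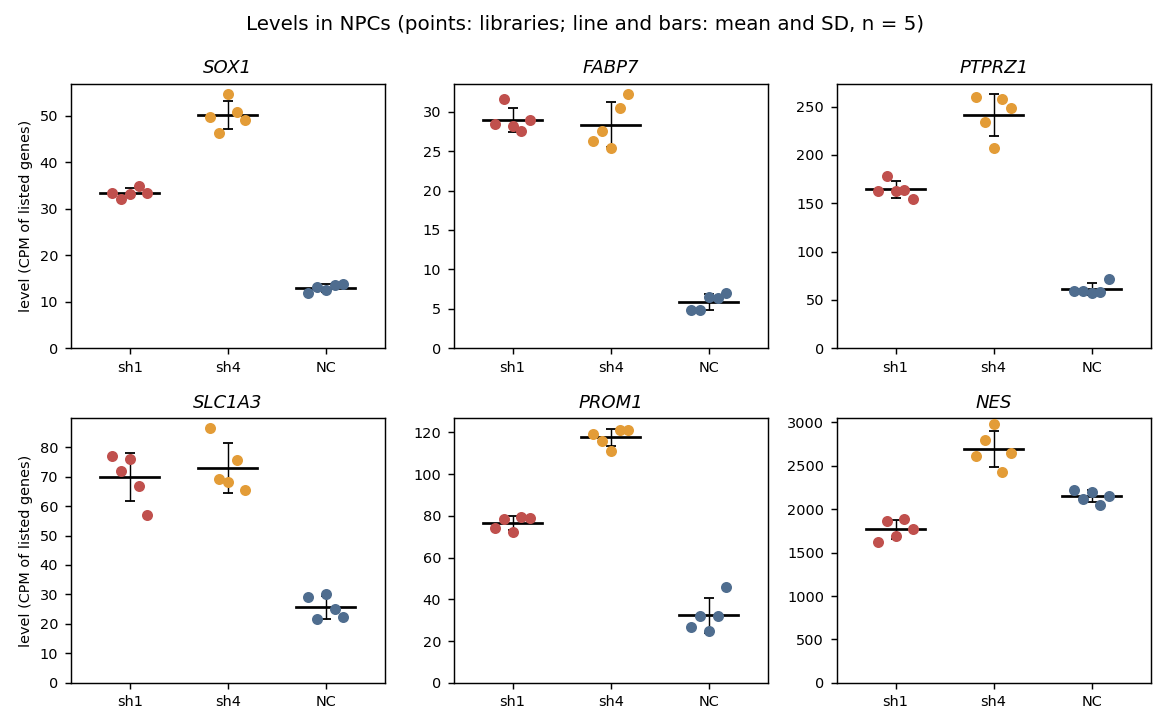
Level in CPM of listed genes (vertical axis, from 0, one scale per gene) of the 6 members in the NPC table with sh1, sh4 and NC. Points are libraries, and the line and bars are the mean and SD (n = 5). SOX1, FABP7, PTPRZ1, SLC1A3 and PROM1 lie above NC with both hairpins, while NES lies below NC with sh1 (1627 to 1893 CPM) and above it with sh4 (2426 to 2979 CPM).

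Of the 6 listed members 5 rose with each hairpin and 0 fell, where 6.31% of the tested NPC genes rose with sh1, 6.55% with sh4 and 4.62% with both; 12.1%, 11.6% and 8.48% fell. Libraries did not overlap between sh1 and NC or between sh4 and NC for 6 of 6, and between sh1 and sh4 for 4 of 6, where 76.6%, 72.8% and 20.6% of all genes had no overlap. The median log2 fold change of the 6 was 1.39 with sh1 and 1.90 with sh4, and that of all tested NPC genes 0.11 and 0.03. Since the table looked selected on the sh1 comparison, a listed member was likely to differ there in 1 direction or the other, and the comparisons of sh1 and sh4 share the NC libraries. With library size as the only scaling the median of all genes was -0.03 with sh1 and -0.11 with sh4, 23.7% and 26.7% of all calls were higher, against 34.3% and 36.2% with TMM, and the same number of members, 5, was called with each hairpin.

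None of the 6 passed the fold threshold between sh1 and sh4 in the NPCs, where 4.6% of all tested genes did. At an adjusted p under 0.05 alone 4 of the 6 were lower with sh1, with log2 differences (sh1 over sh4) of -0.59 for SOX1, -0.55 for PTPRZ1, -0.61 for PROM1 and -0.61 for NES (adjusted p at most 0.000118, edgeR's quasi-likelihood test). For FABP7 the difference was 0.03 (95% interval -0.16 to 0.22) and for SLC1A3 -0.07 (-0.27 to 0.14). SOX1, PTPRZ1 and PROM1 had the order NC below sh1 below sh4 with no library out of place, 3 of 6, as did 3.23% of all tested NPC genes.

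The NPCs were compared with their own defining markers. PAX6 had 25.7 to 30.4 CPM with sh1, 2.85 to 3.59 CPM with sh4 and 15.7 to 19.6 CPM with NC, so the hairpins stood on opposite sides of NC. POU5F1 had 89.3 to 119, 115 to 147 and 227 to 430 CPM, and NANOG had 6.21 to 8.09, 17.6 to 27 and 0.655 to 1.57 CPM. DCX had 25.7 to 29.9, 45.8 to 56.8 and 42.6 to 52.7 CPM. TUBB3, a gene of the cerebral identity list, had 145 to 219, 294 to 382 and 304 to 409 CPM. For both genes sh1 lay below NC and sh4 overlapped it. Of 10 tested pluripotency genes 5 rose with both hairpins and 1, POU5F1, fell, where 4.62% and 8.48% of all genes did. The summed level of the list was 1989 to 2156 CPM with sh1, 1934 to 2132 CPM with sh4 and 1215 to 1357 CPM with NC, with none at 0. Proliferation genes, summed, had 4044 to 4279, 3659 to 3844 and 2815 to 3127 CPM. Of 14, 1 rose with both hairpins, RRM2, a subunit of ribonucleotide reductase, where 4.62% of all genes did. MKI67, a marker of dividing cells, went the other way, with 531 to 563, 519 to 550 and 629 to 679 CPM. The part of these markers in the rise of the members was not tested.

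The change against NC was tested between the systems for the 6 members in both tables, as the log2 fold change in NPCs minus that in organoids. A gene passed this test at an adjusted p under 0.05, with no fold threshold. SOX1 differed by 4.03 with sh1 (SE 0.15, adjusted p = 4.14e-16) and 6.24 with sh4 (SE 0.17, adjusted p = 8.01e-19) in edgeR's quasi-likelihood test of the interaction. PTPRZ1 differed by 3.60 and 6.87, and FABP7 by 4.81 and 7.15. These 3 genes rose in the NPCs and fell in the organoids with both hairpins.

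SLC1A3 differed by 3.08 with sh1 and 2.15 with sh4. PROM1 differed least among the members that passed, by 1.48 with sh1 (adjusted p = 1.69e-06, edgeR's quasi-likelihood test) and 0.66 with sh4 (adjusted p = 0.00663), having risen in both systems with sh4. NES differed by 0.28 with sh1 (95% interval -0.10 to 0.67, adjusted p = 0.172) and by 2.33 with sh4 (adjusted p = 7.06e-11). In all, 5 of 6 members passed with sh1 and 6 of 6 with sh4, where 73.7% and 77.7% of 10020 shared genes passed and 62% passed with both, so a difference between the systems was the rule among listed genes. All the members that passed were higher in the NPC contrast, as were 36% and 38.1% of all genes. The KDM2A contrast itself differed by -1.12 with sh1 (adjusted p = 1.5e-10) and -0.98 with sh4 (adjusted p = 7.11e-10). The systems differ in culture, stage and KDM2A level together, and these cannot be told apart.

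Levels per kilobase of exon rank the members within a group. In NC organoids VIM (409 CPM per kilobase) led, before NES (95.5), SOX2 (80.7), PTPRZ1 (45.6), SOX3 (43.5), FABP7 (34.1), SOX1 (19.2), SLC1A3 (17.8), NR2E1 (9.76) and PROM1 (3.61). Of neighbours in that order, PTPRZ1 and SOX3, and SOX1 and SLC1A3, overlapped between libraries. In sh1 organoids the order of the first 4 was the same, VIM (418), NES (66), SOX2 (38) and PTPRZ1 (10.3), with NR2E1 (0.387) last.

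In sh4 organoids VIM (243) and NES (23.7) were followed by SLC1A3 (11.4), SOX2 (8.97) and PROM1 (8.28), neighbours that overlapped. SOX3 (2), PTPRZ1 (1.52), FABP7 (1.14) and SOX1 (0.972) overlapped likewise, and NR2E1 (0.177) came last. SLC1A3 and PROM1 thus ranked above SOX3, PTPRZ1, FABP7, SOX1 and NR2E1 in the sh4 organoids, but below VIM and NES, and SOX2 lay between them. In the NPCs NES led in every group, with 318 with sh1, 485 with sh4 and 387 with NC, followed by PTPRZ1 with 16.6, 24.4 and 6.16; FABP7 was last with NC (2.16) and PROM1 with sh1 (10.3).

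Other genes of radial glia and of the SOX family set the members in context. Of 29 other radial glia genes tested in the organoids 2 rose and 6 fell with both hairpins, against 10.2% and 6.18% of all genes, and the median log2 fold changes were -0.43 with sh1 and -1.01 with sh4. HES5, a Notch effector that keeps radial glia undifferentiated, had 4.55 ± 0.577 CPM with sh1, 0.72 ± 0.467 CPM with sh4 and 37 ± 8.09 CPM with NC (SD, n = 3 each) and fell with both hairpins (log2 fold changes -3.02 with sh1 and -5.65 with sh4). PAX6 fell likewise (-3.56 and -4.41). EGFR, the receptor of epidermal growth factor on late progenitors and on many other cells, rose (2.06 and 3.43), as did NFIA, a factor of glial fate (1.76 and 1.14). In the NPCs 0 of 21 rose and 2 fell, against 4.62% and 8.48% of all genes: NFIB (-1.52 with sh1 and -1.01 with sh4) and EGFR (-1.16 and -1.16), with medians of -0.27 and 0.00.

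Beyond the SOXB1 group, SOX21, a SOXB2 factor known to counteract SOXB1 proteins, fell in the organoids (log2 fold changes -2.82 with sh1 and -4.20 with sh4), and SOX14 did not pass the filter. SOX9, the SOXE factor of glial and neural crest progenitors, fell there (-1.01 and -1.83), 1 of 3 tested SOXE genes. SOX6, a SOXD factor of glia, cartilage and interneurons, rose in the organoids (1.12 and 1.05) and fell in the NPCs (-1.13 and -1.58). Of the neuronal SOXC genes 0 of 3 passed with both hairpins in either system (organoid medians -0.78 and -2.03, NPC medians -0.26 and 0.11). SOX15 fell in the organoids (-2.47 and -2.89), 1 of 4 tested genes of the remaining groups. Over all tested genes 10.2% rose and 6.18% fell with both hairpins in the organoids, and 4.62% and 8.48% in the NPCs.

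Genes that work with the members were counted in the same way. With both hairpins 10.2% of all tested organoid genes rose and 6.18% fell. In the NPCs 4.62% rose and 8.48% fell, so counts of 1 gene with both hairpins in these short lists are near those shares. Of 9 ligands and partners of PTPRZ1 tested in the organoids 0 rose and 2 fell, TNR, a tenascin of the nervous system (means of 0.53 CPM with sh1, 0.407 CPM with sh4 and 17.2 CPM with NC), and NRCAM, a neuronal adhesion molecule (log2 fold changes -2.16 and -4.31). In the NPCs CNTN1, a contactin bound by PTPRZ1, fell (-1.90 and -1.43), 1 of 7. Of 9 genes around NR2E1 1 rose in the organoids, NR2F2 (1.44 and 1.04), an orphan receptor of ventral forebrain, vessels and mesenchyme, and 0 of 6 passed in the NPCs. Of 6 other glutamate transport genes 1 fell in the organoids, SLC1A2, the astrocyte transporter (-1.69 and -3.55), and 0 of 4 passed in the NPCs. More organoid genes passed with sh4 by itself, where 15.5% of all genes fell and 20% rose. Of the 9 ligands and partners of PTPRZ1 6 fell and 1 rose with sh4. Of the 9 genes around NR2E1 4 fell and 2 rose, and of the 6 glutamate transport genes 2 fell and 1 rose.

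Of the other fatty acid binding genes 2 rose and 1 fell with both hairpins in the organoids, of 4 tested. FABP1, of liver and gut, rose (75.2 ± 38.6 CPM with sh1, 375 ± 207 CPM with sh4, 1.08 ± 0.993 CPM with NC; SD, n = 3 each), FABP6 rose (log2 fold changes 1.14 and 2.58) and FABP3, of muscle and heart, fell (-3.39 and -1.44). Other intermediate filament genes had 1 of 10 higher in the organoids, DES, the filament of muscle (2.38 and 3.41), and 1 of 7 lower in the NPCs, GFAP, of astrocytes (-2.35 and -2.16, at 4.48 CPM with NC). Of the fatty acid binding genes listed for the NPCs 0 of 2 passed with both hairpins. Over all tested genes 10.2% rose and 6.18% fell with both hairpins in the organoids, and 4.62% and 8.48% in the NPCs. The filament counts with both hairpins, 1 of 10 and 1 of 7, are near these shares. With sh4 by itself 4 of the 10 fell and 2 rose in the organoids, where 15.5% and 20% of all genes did. With sh1 3 of the 10 rose and 0 fell, where 12.1% and 7.92% of all genes did.

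Neuronal commitment genes fell in part with both hairpins, and more of them with sh4 in the organoids and with sh1 in the NPCs. In the organoids 0 of 16 rose and 5 fell with both hairpins, against 6.18% of all genes lower, with medians of -0.99 with sh1 and -2.48 with sh4. With sh4 by itself 13 of the 16 fell and 0 rose, where 15.5% and 20% of all genes did. NEUROG2, the proneural factor of cortex, fell with both (-2.62 and -6.19). In the NPCs 0 of 12 rose and 1 fell with both hairpins, where 4.62% and 8.48% of all genes did. The 1 was NEUROG1 (-2.59 and -1.79, at 1.96 CPM with NC), and the medians of the list were -1.17 and -0.28. With sh1 by itself 7 of the 12 fell there, where 12.1% of all genes did, and with sh4 1 fell, where 11.6% did. The summed level of these NPC genes overlapped between sh1 (2248 to 2558 CPM) and NC (2193 to 2772 CPM). Proliferation genes had 0 of 14 called with both hairpins in the organoids, with medians of -0.28 and -0.53. With sh4 2 of the 14 were called lower, near the 15.5% of all genes. The summed level of the list was 1021 to 1400 CPM with sh1, 797 to 1049 CPM with sh4 and 1336 to 1596 CPM with NC, so that sh4 lay below NC in every library and sh1 overlapped it.

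Cell types other than neural progenitors were followed by their markers. Over all tested organoid genes 10.2% rose and 6.18% fell with both hairpins. Of 10 cerebral identity genes 0 rose and 4 fell with both hairpins in the organoids, with medians of -1.18 with sh1 and -3.78 with sh4. Choroid plexus genes, which mark the secretory epithelium that also arises from the dorsal telencephalon, had 6 of 8 higher and 0 lower; TTR, transthyretin of choroid plexus and liver, had 1184 ± 493 CPM with sh1, 5087 ± 2444 CPM with sh4 and 31.2 ± 30.7 CPM with NC (SD, n = 3 each). A list of 14 genes of liver and early endoderm, chosen after its values were seen, had 14 higher and 0 lower, with summed levels of 5051 to 14825 CPM, 28158 to 101050 CPM and 97.4 to 600 CPM. The part of these cells in the members' fall was not tested.

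**Figure D5:**
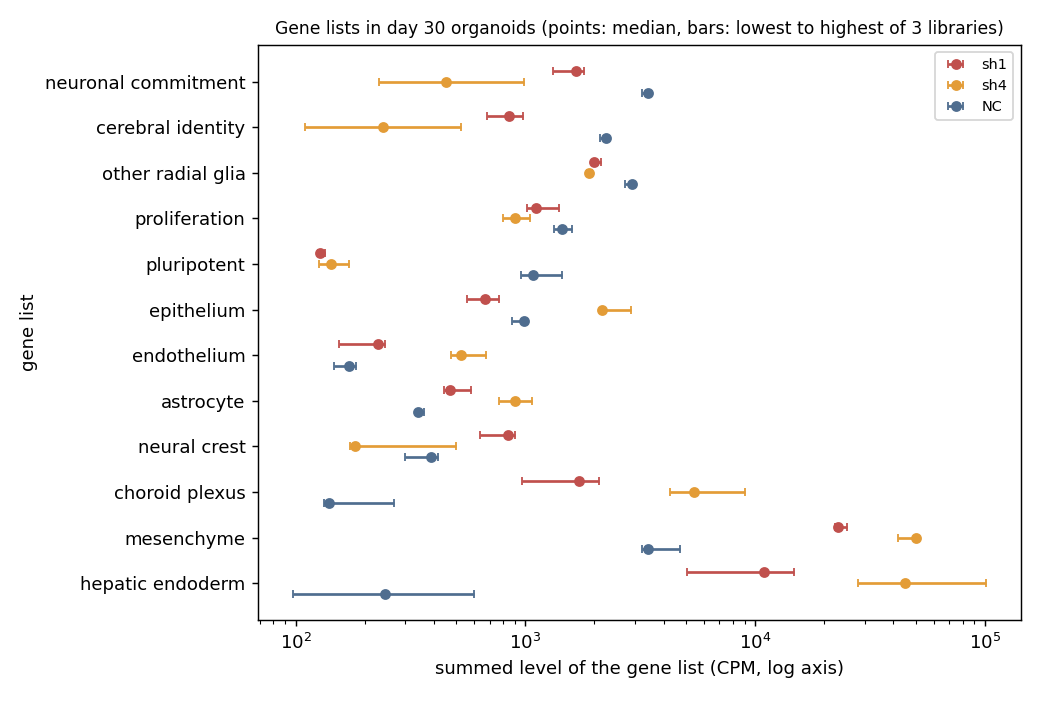
Summed level in CPM (horizontal log axis) of gene lists in organoids labelled sh1, sh4 and NC; points are the median and bars the lowest to highest of 3 libraries. Neuronal, cerebral and pluripotency lists are highest with NC, and the mesenchyme, choroid plexus and hepatic lists are highest with sh4 (mesenchyme 41823 to 51330 CPM, against 3235 to 4710 CPM with NC). With sh4 most of the choroid plexus sum (median 5415 CPM) is TTR (mean 5087 CPM), a gene of choroid plexus and liver.

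The genes whose profile across libraries was nearest to a SOXB1 member were found by the root mean square difference of centred log2 CPM. Over the 9 organoid libraries the nearest of 12121 genes to SOX2 were RAB39B, a neuronal small GTPase (0.192), ADGRB3, an adhesion receptor (0.208), and CDH4, retinal cadherin (0.219). Their log2 fold changes were -1.13, -1.07 and -1.39 with sh1 and -3.27, -3.19 and -3.31 with sh4. Over the 15 NPC libraries the nearest of 7981 genes to SOX1 included FBLN1, a matrix fibulin (0.107), and EMP1, an epithelial membrane protein (0.144). These distances describe the libraries, which share their 3 group means.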

How the data were processed

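Poly(A)-selected RNA, primed with random hexamers, was sequenced from 15 NPC and 9 organoid libraries, per the labels' protocols. The authors deposited 1 table per system of expected counts, unscaled, one value per gene and library. Of the values, 82.4% in the NPC and 91.0% in the organoid table were whole within 1e-06, and all were rounded before testing. STAR, featureCounts and GRCh38.p13 are named in the submitters' processing notes; settings and strand use are not given in the sources used here, so reads of overlapping or antisense genes could not be told apart.

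The 3 groups of a system entered 1 fit of edgeR 4.0.16 (R 4.3.3) with filterByExpr (minimum count 10) and TMM, and P-values were adjusted by Benjamini-Hochberg over all 9860 NPC or 19704 organoid genes. The thresholds are those of the study's design text. The system difference was an interaction over all 6 groups in 10020 shared genes, called at an adjusted p under 0.05 with no fold threshold. The fits were tested on simulated data. CPM use TMM-scaled totals, and levels per kilobase use exon lengths of the GENCODE annotation on GRCh38. A symbol was found for 42085 of the organoid identifiers. DESeq2 1.42.0, other scalings, no filter, 2 groups per fit, a replicate block and leaving out each library were tried as alternatives. No pair of libraries agreed within sampling noise.

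The members and the 22 gene lists were chosen with earlier results of these data known. The text names the 10 members, KDM2A, and from each list and system up to 2 genes with the highest and 2 with the lowest mean of both log2 fold changes among those called the same way with both hairpins. Other genes with values are defining markers (AFP, DCX, EPCAM, TUBB3, MKI67, and POU5F1 and PAX6 where the rule does not take them), SOX14 or genes overlapping a member, chosen after their values were seen. A few genes that this rule takes are not reported here but stay in the counts of their lists. Promoter sequences are from RefSeq on GRCh38.p14, and all 10 members matched. Of the 16 RefSeq starts of the members 11 lie inside and 5 before the gene as GENCODE gives it, 0 on the same base, so the 250 bases searched can reach into a gene. Protein sequences were not used here.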

Additional observations from a re-analysis of the deposited data

Results flagged for a closer look

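PTPRZ1 in NPC replicate 5 of NC, at 71.6 CPM, stood apart from the other NC libraries (57.4 to 59 CPM) by Dixon's criterion. This was 1 of 21 groups examined, and chance gives about 1 in 20. PTPRZ1 was called higher with both hairpins with and without that library.

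The change against NC differed between NPCs and organoids in the test of the interaction for most members listed in both tables. The log2 differences, NPCs minus organoids, with sh1 were 4.03 for SOX1, 4.81 for FABP7, 3.60 for PTPRZ1, 3.08 for SLC1A3, 1.48 for PROM1 and -1.12 for the target KDM2A. With sh4 they were 6.24 for SOX1, 7.15 for FABP7, 6.87 for PTPRZ1, 2.15 for SLC1A3, 0.66 for PROM1, 2.33 for NES and -0.98 for KDM2A. Of the shared genes, 62% passed this test with both hairpins.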

How the results depend on the processing

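With the adjusted p alone and no fold threshold, edgeR called 9792 NPC genes with sh1, 8679 with sh4 and 2724 between the hairpins, and 9199, 13374 and 9842 organoid genes in the same comparisons; 4 members were then called between sh1 and sh4 in the NPCs, against 0. Restricted to genes that the NPC table lists, the organoid fits called 1651, 3090 and 1624 genes, and 4 members with sh1 and 5 with sh4, fewer genes and members being tested by construction. Counts of members and genes under all other settings were within 1.5 times of those reported.

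With library size alone the organoid value of VIM with sh1 was -0.013 and that of KDM2A with sh4 was -0.27 (adjusted p = 0.00871 for KDM2A, edgeR's quasi-likelihood test). Leaving out 1 library moved values near 0 across it: VIM with sh1 ran from -0.0444 to 0.0823 and KDM2A with sh4 from -0.0224 to 0.0501 in the organoids, and between the NPC hairpins FABP7 ran from -0.007 to 0.0794 and SLC1A3 from -0.1 to 0.00315. Without 1 library the number of members called was 6 to 7 with sh1, 8 with sh4 and 7 to 9 between the hairpins in the organoids, 5, 5 and 0 in the NPCs, and 5 to 6 and 6 for the system difference with sh1 and sh4. SOX2 with sh1 ran from -1.37 to -0.94, and FABP7 from -3.71 to -2.06 with sh1 and from 1.15 to 2.89 between the organoid hairpins. KDM2A in the NPCs with sh1 ran from -1.06 to -0.98, crossing the fold threshold without NC replicate 1 or 3; with sh4 it passed it at -1.11 with library size alone and at -1.01 without NC replicate 5. NES for the system difference with sh1 passed without sh4 replicate 1 (adjusted p = 0.02, edgeR) or 2 (0.0425). The cause was not tested.

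Same-numbered libraries did not deviate together in every pair, with correlations of -0.163 to 0.546 in the NPCs and at most 0.013 in the organoids, so the numbers were not taken as pairs. With the replicate block 1818, 1789 and 460 NPC genes and 3771, 6899 and 3600 organoid genes were called, 7454 and 7841 for the system difference, and no member call changed. Depth limits NR2E1 most, with 5 to 40 counts in the hairpin organoids. Calls on unlisted NPC genes cannot be made.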

Other observations

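Lists of neighbouring cell states gave further values. The counts here and in the next paragraph stand beside 10.2% of all organoid genes higher and 6.18% lower with both hairpins. In the NPCs these shares were 4.62% and 8.48%. Of 11 early neuroepithelium genes tested in the organoids 1 rose and 2 fell with both hairpins: DLK1, a non-canonical Notch ligand, rose (log2 fold changes 2.20 with sh1 and 3.78 with sh4), and the RNA-binding protein genes LIN28A (-5.27 and -4.48) and LIN28B (-1.02 and -1.20) fell. In the NPCs 1 of 10 rose, HMGA2, a chromatin protein of early neural stem cells (1.38 and 1.06), and DLK1 fell (-3.06 and -2.30). DLK1 was thus called in opposite directions in the systems.

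Astrocyte markers had 3 of 7 higher and 1 lower in the organoids, among them SPARCL1 (4.91 with sh1 and 4.39 with sh4) and S100B (5.49 and 2.46), and 0 higher and 4 lower of 6 in the NPCs, among them S100B (-2.34 and -2.74, at 4 CPM with NC); the summed level of the list there went the other way, with 1086 to 1325 CPM with sh1, 1182 to 1373 CPM with sh4 and 854 to 951 CPM with NC. Endothelium markers had 3 of 8 higher in the organoids, among them CLDN5 (2.58 and 2.29) and PECAM1 (1.65 and 2.40), and 1 higher and 2 lower of 8 in the NPCs, with KDR rising (2.94 and 3.25) and CDH5 and VWF falling. Neural crest markers had 0 of 8 called with both hairpins in the organoids, where their summed level was 635 to 899 CPM with sh1, 172 to 498 CPM with sh4 and 301 to 416 CPM with NC, and 1 of 2 rose in the NPCs. Of mesenchyme genes 2 of 10 rose in the NPCs, LUM (1.47 and 3.67) and THY1 (1.29 and 1.93). The summed level of that list was 5619 to 6873 CPM with sh1, 6758 to 7671 CPM with sh4 and 7239 to 7906 CPM with NC. Of epithelium genes 2 of 8 fell there, CLDN3 and CLDN4, at 3.21 and 9.01 CPM with NC. The rest of the list did not go with them: its medians were 0.88 with sh1 and 0.31 with sh4, and 3 genes were called higher with sh1. Its summed level was 246 to 280 CPM with sh1, 192 to 253 CPM with sh4 and 187 to 211 CPM with NC.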
